A study of Oryctolagus cuniculus with 30 samples.

Results

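A set of 90 array probes, on 73 transcript contigs, had a lower signal in covered than in uncovered rabbit ear wounds 3 days after closure and nearly the same signal in both arms 5 days after closure. They were chosen by their measured values in the deposited series table, from the 14558 probes whose name starts with UF_Ocu_AF and the 23369 probes of the whole array. A probe was kept where the highest of its 6 group means was at least 9 on the log2 scale, the uncovered minus covered difference at day 3 was at least 0.8, and the same difference at day 5 lay within 0.3 of 0.

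The samples were epidermis of female New Zealand White rabbits, and 1 sample was hybridised per array on a 1-colour (Cy3) Agilent design with 60-base probes. Every sample was treated with 0.5 M thiocyanate for 30 min, and 400 ng of RNA was labelled. Grids of incisions were cut in the ear skin. Both ears carried 1 layer of Tegaderm, a clear film that sticks to skin, for the 2 days that re-epithelialization took, and its end is called closure or day 0. Right ears then had the film taken off (uncovered) and left ears received 4 further layers (covered). There were 2 arrays of unwounded skin, 6 of wounds at closure, 6 and 5 of uncovered and covered wounds at day 3, and 6 and 5 at day 5. Arm and ear side cannot be told apart. No label names the animal behind an array. The p-values below therefore rest on the spread among these samples alone, and both ears of 1 animal may be among them.

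The epidermis is a layered sheet of keratinocytes that keeps water in the body. After a wound has re-epithelialized, the new sheet loses water faster than mature skin until its outer barrier has formed, and a film dressing that holds vapour keeps it hydrated. Newly closed epidermis is known for activated keratinocytes, which turn on proliferation, keratin and inflammatory programmes and later return to ordinary differentiation. The comparison of covered with uncovered wounds asks how hydration changes gene expression during that return.

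The array files describe every probe as unknown and name a contig in place of a gene, and none of the accession-like contig names matched the RefSeq gene table used here. No gene symbol, chromosome position, pathway list or cell type marker can therefore be given, and the labelled tissue was not checked against markers. In epidermis measured in bulk, fewer cells of a type and less RNA per cell cannot be told apart. Levels below are log2 scanner signals relative to the 75th percentile of each array, so a level of 0 equals that percentile, and values for different probes are not compared with each other because probes differ in binding.

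Only 376 of the 7795 probes past the signal floor reached the day 3 limit. Of these, 90 met the day 5 limit, 286 had a day 5 difference at or above the positive limit, and 0 at or below the negative one. The day 5 limit thus divided a continuous range. In the series table the day 3 differences of the 90 probes ran from 0.80 to 1.72 with a median of 0.94. Their day 5 differences ran from -0.19 to 0.29 with a median of 0.13, and 75 of 90 were still on the uncovered side at day 5. The median day 5 difference of all 376 probes was 0.64. UF_Ocu_AF_101563 was just inside the day 3 limit at 0.8001 and UF_Ocu_AF_114001 just outside at 0.7976. At the day 5 limit, UF_Ocu_AF_109957 was just inside at 0.2936 and UF_Ocu_AF_110451 just outside at 0.3007.

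**Figure D1:**
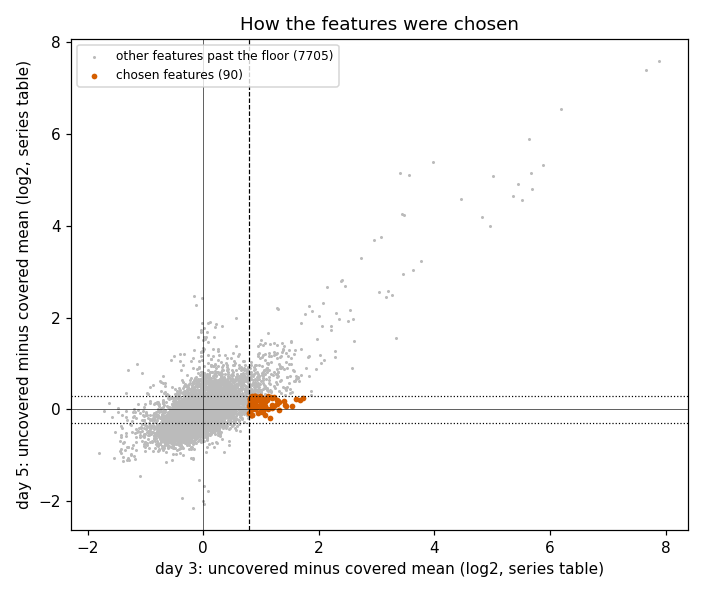
Difference between uncovered and covered group means (log2, series table) at day 3 on the horizontal axis and at day 5 on the vertical axis, for the 7795 probes past the floor, with the limits of the choice as dashed and dotted lines. The 90 chosen probes (orange) fill a window cut from a cloud that continues upward without a gap.

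Probes with large day 3 differences are shown first because the account of the levels turns on them. They lie on 11 contigs, and where both probes of a contig were chosen the pair is given together. Each line holds the probe as printed on the array, with the hexamer AATAAA, the common polyadenylation signal, in capitals where it occurs.
UF_Ocu_AF_106430: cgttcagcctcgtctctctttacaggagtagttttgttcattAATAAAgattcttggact
UF_Ocu_AF_108083: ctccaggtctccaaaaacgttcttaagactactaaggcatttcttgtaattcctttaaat
UF_Ocu_AF_103069: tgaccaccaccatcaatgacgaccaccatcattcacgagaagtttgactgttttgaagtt
UF_Ocu_AF_103068: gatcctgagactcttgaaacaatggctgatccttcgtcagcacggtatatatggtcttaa
UF_Ocu_AF_108443: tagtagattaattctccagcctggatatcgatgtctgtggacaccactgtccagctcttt
UF_Ocu_AF_106225: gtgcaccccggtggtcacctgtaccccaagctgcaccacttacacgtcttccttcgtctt
UF_Ocu_AF_105505: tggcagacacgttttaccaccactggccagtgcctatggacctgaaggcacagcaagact
UF_Ocu_AF_110583: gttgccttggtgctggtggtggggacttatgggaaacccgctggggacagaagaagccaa
UF_Ocu_AF_104258: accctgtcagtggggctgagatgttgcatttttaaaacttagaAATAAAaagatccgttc
UF_Ocu_AF_104259: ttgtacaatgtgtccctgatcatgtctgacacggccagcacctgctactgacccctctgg
UF_Ocu_AF_111920: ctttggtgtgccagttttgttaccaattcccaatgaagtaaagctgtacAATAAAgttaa
UF_Ocu_AF_111921: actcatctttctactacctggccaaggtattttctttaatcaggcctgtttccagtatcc
UF_Ocu_AF_114403: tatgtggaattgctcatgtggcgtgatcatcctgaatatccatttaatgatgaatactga
UF_Ocu_AF_109524: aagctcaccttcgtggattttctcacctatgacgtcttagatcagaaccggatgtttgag

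The AATAAA hexamer, searched as AATAAA on the printed strand, was in 16 of the 90 probes (17.8%), in 13.0% of all 7795 probes past the floor and in 8.59% of all 14558 probes of that name class. Its variant ATTAAA was in 6 probes (6.67%), against 4.48% of those past the floor. The reverse strand of the hexamer, TTTATT, was in 5 probes (5.56%), against 4.58% past the floor. The 5-base AU-rich element core ATTTA was in 8 probes (8.89%), against 8.43% past the floor. Median GC content was 38.3% in the chosen probes, with a range of 25 to 68.3%, and 43.3% in all probes past the floor. These shares are a description, and no test was made. No sequence occurred on another probe of the array.

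On the scanner scale all 90 probes were higher in uncovered than in covered day 3 wounds, with a median difference of 1.21. In 83 probes the signal was well above background on 50% or more of the arrays in each arm, and their differences ran from 0.81 to 2.28. For 58 of all 90 probes every uncovered array lay above every covered array, a pattern that 6.23% of the 12342 tested probes showed. In some of the 58, no covered array was well above background. The choice used this contrast, so nothing is read from these counts. At day 5, 1 probe had arms that did not overlap in that direction, against 5.76% of all tested probes. It was UF_Ocu_AF_101139, with 0 of 11 day 5 arrays well above background, so the gap lies between background signals. Within the slides that held both arms at day 3, the uncovered array was higher for 90, 87 and 90 probes on slides 5, 9 and 11, with median differences of 1.01, 0.64 and 1.78. Within the slides that held both arms at day 5, the uncovered array was higher for 44, 25 and 58 probes on slides 1, 3 and 9, with median differences of -0.0025, -0.20 and 0.18. The choice used these same arrays and contrasts, so nothing is read from the slide counts either.

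The median level of the 90 probes on an array averaged -1.64 ± 0.26 (SD, n = 6) in uncovered day 3 wounds. In covered day 3 wounds it averaged -2.86 ± 0.20 (SD, n = 5). The same median was -2.27 ± 0.32 (SD, n = 6) at closure, -2.60 and -2.44 on the 2 unwounded arrays, and -2.33 ± 0.28 (SD, n = 6) and -2.57 ± 0.44 (SD, n = 5) in the uncovered and covered arm at day 5. The mean of the uncovered day 3 arrays lay above that at closure and the mean of the covered ones below it. Of the uncovered day 3 arrays, replicates 6 and 5 were the highest, at -1.23 and -1.48, and replicate 3 was the lowest, at -1.91. The covered day 3 arrays lay between -3.07 and -2.64. By group mean, 45 probes were highest in uncovered day 3 wounds and 35 at closure, while 38 were lowest in covered day 3 wounds, 21 at closure and 17 in unwounded skin. The choice set covered below uncovered day 3 means, so these positions and ranks are a description and nothing is read from them.

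**Figure D2:**
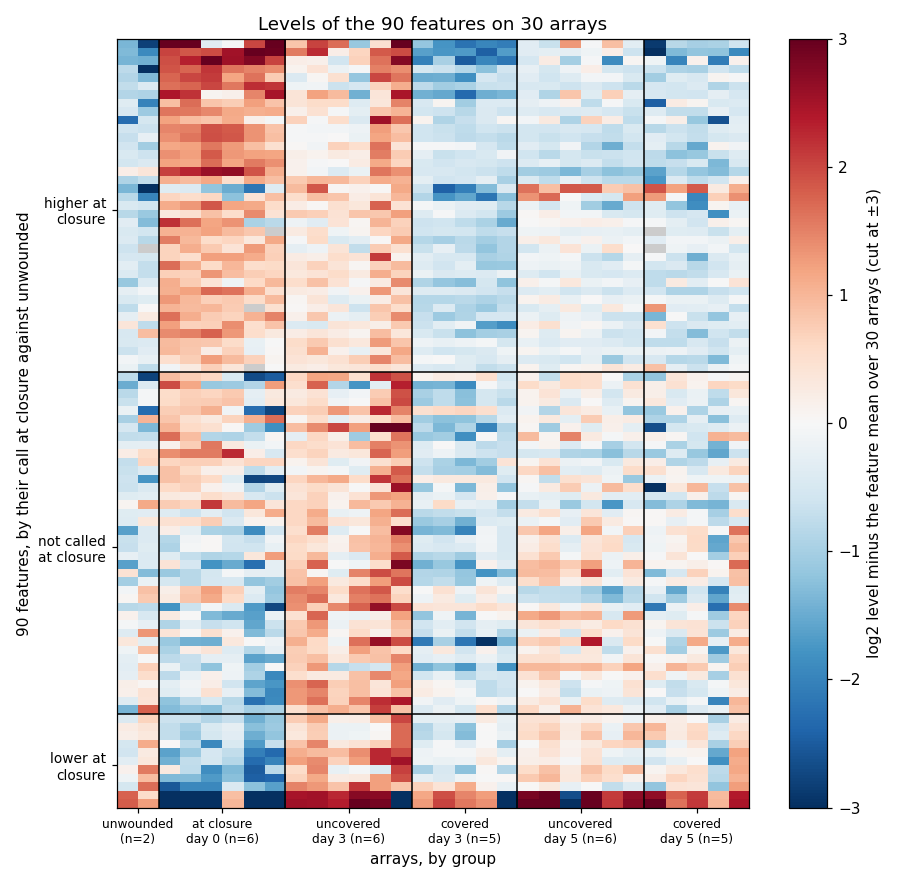
Heat map of the 90 probes (rows) on the 30 arrays (columns, by group), as log2 level minus the probe's mean over all arrays, from blue (low) to red (high), with missing values in grey. Rows are split by their call at closure against unwounded skin, and the uncovered day 3 columns are mostly red in all 3 blocks while the closure columns are mostly red in the upper block and blue in the lowest.

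The leading probes differed in where the day 3 arms lay relative to the other groups. UF_Ocu_AF_108083 had levels of -0.09 and 0.72 in unwounded skin and a lowest, median and highest level of -0.27, 0.24 and 0.45 at closure. In uncovered wounds it reached 1.21, 1.98 and 2.88 at day 3 (lowest, median, highest), and in covered wounds it was at 0.05, 0.18, -0.22, 0.80 and 0.54. Covered day 3 wounds thus overlapped the wounds at closure, and every uncovered day 3 array lay above both. At day 5 the uncovered arrays ran from 0.84 to 1.74 and the covered arrays were at 0.88, 1.17, 1.15, 0.41 and 1.83, so the arms overlapped. The covered array at 0.41 lay within the closure range, and all other day 5 arrays lay above it. By limma this probe was 1.03 higher (SE 0.22, adjusted p = 2.3e-04) over all 11 day 5 arrays than at closure.

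UF_Ocu_AF_103069 and UF_Ocu_AF_103068, which lie on the same contig, were highest in uncovered day 3 wounds. UF_Ocu_AF_103069 had levels of -2.69 and -1.90 in unwounded skin and from -4.56 to -2.77 at closure, with a median of -3.33. Its uncovered day 3 levels were -1.63, -0.75 and 0.11 (lowest, median, highest) and its covered day 3 levels were -2.43, -2.65, -2.45, -2.27 and -2.48. No array of another group except 1 reached the uncovered day 3 range, the exception being a covered day 5 array at -1.32. UF_Ocu_AF_103068 had group means of -1.33 ± 0.69 (SD, n = 6) and -2.91 ± 0.21 (SD, n = 5) in the uncovered and covered arm at day 3.

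In other leading probes the range of the uncovered day 3 wounds overlapped that at closure. UF_Ocu_AF_109524 had levels of 0.06 and 0.03 in unwounded skin, 1.06 to 1.80 at closure, 0.68 to 2.65 in uncovered day 3 wounds and -0.41 to 0.26 in covered ones. At day 5 its levels ran from -0.30 to 0.51 uncovered and from -0.89 to 0.53 covered. UF_Ocu_AF_110583 was at -4.67 to -2.29 at closure, at -6.20 to -2.31 in uncovered and -7.11 to -6.14 in covered day 3 wounds, with 3 of 5 covered arrays well above background. UF_Ocu_AF_111920 ran from -2.66 to -1.47 at closure and from -2.44 to -0.35 in uncovered day 3 wounds, and its covered day 3 levels of -3.43, -3.09, -3.57, -2.86 and -3.13 all lay below the uncovered ones. This probe and its partner UF_Ocu_AF_111921 had closure and uncovered day 3 means of -1.84 and -1.73 for the first and -2.63 and -2.58 for the second, and covered day 3 means of -3.21 and -3.92.

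In a further 3 leading probes the means of both arms were high at day 5. UF_Ocu_AF_106225 had levels of -5.06 and -7.84 in unwounded skin, 1 of them well above background, and from -5.87 to -4.05 at closure. It was at -3.67, -3.15 and -1.83 (lowest, median, highest) in uncovered day 3 wounds and at -4.33, -6.12, -5.75, -5.00 and -4.12 in covered ones. At day 5 both arms were high, from -2.94 to -1.82 uncovered and from -3.44 to -1.81 covered. UF_Ocu_AF_108443 and UF_Ocu_AF_106430 likewise had similar day 5 means in both arms, -2.47 and -2.63 for the first and -2.16 and -2.44 for the second. The covered day 5 arrays of UF_Ocu_AF_106430 ran from -4.665 to -1.344, the lowest near its lower unwounded array at -4.687. The covered day 3 means of the 2 probes, -4.19 and -4.24, were near their unwounded means of -4.15 and -4.11.

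**Figure D3:**
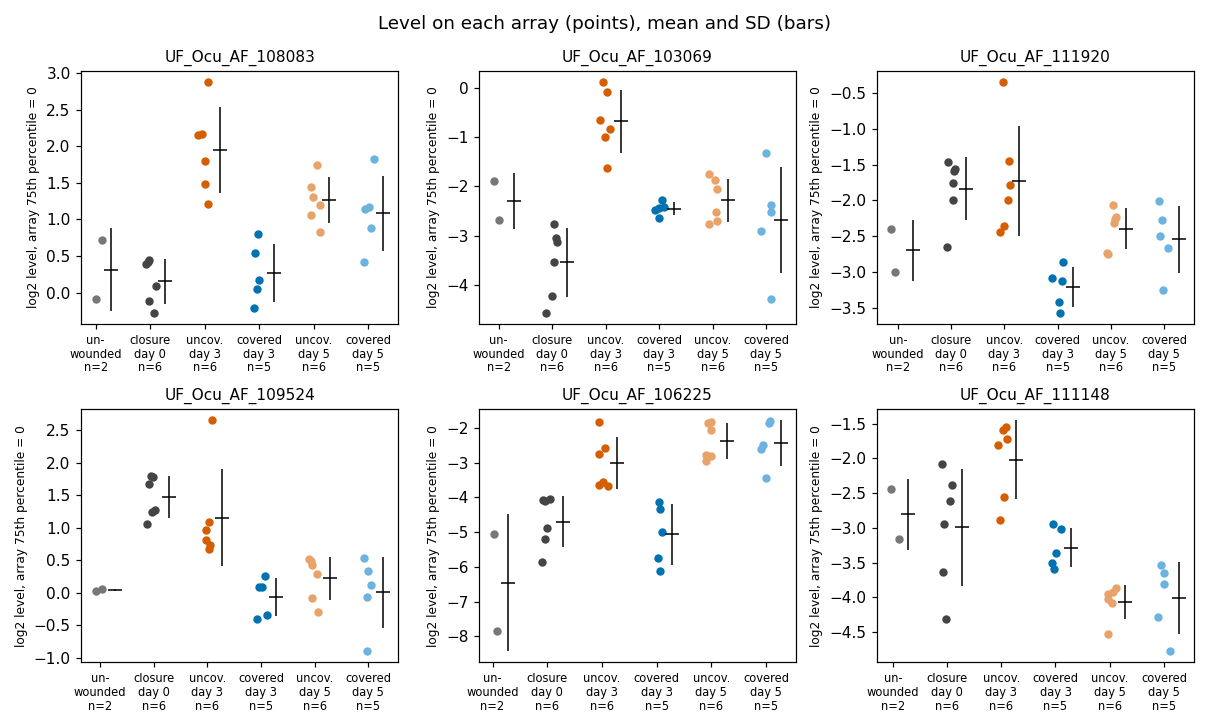
Log2 level of 6 chosen probes on each array (points), with the group mean and SD beside them, for unwounded skin, closure and both arms at day 3 and day 5. Covered day 3 wounds (dark blue) lie below uncovered day 3 wounds (orange) in every panel, and the day 5 arms overlap, for example between -4.53 and -3.87 for UF_Ocu_AF_111148.

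Some leading probes were near background. Over all 30 arrays, 67 of the 90 probes were well above background, and the lowest count among the other 23 was 2 arrays. UF_Ocu_AF_104258 and UF_Ocu_AF_104259, a pair, were well above background on 5 of 6 uncovered and 0 of 5 covered day 3 arrays. Against the lowest signal well above background on each covered array, or the probe's own signal where higher, the uncovered mean was at least 5.11-fold higher for the first and at least 4.14-fold for the second. UF_Ocu_AF_114403 was well above background on 4 uncovered day 3 arrays and on no other array of the study, which makes its uncovered mean at least 2.84-fold higher than the covered one. The signal floor admitted UF_Ocu_AF_105505 through the series table value of uncovered day 3 replicate 4, where 1 of its 2 spots carries an outlier flag. On scanner values its highest mean was in uncovered day 5 wounds. The floor also admitted UF_Ocu_AF_104258, UF_Ocu_AF_104259 and UF_Ocu_AF_114403 through uncovered day 3 wounds alone, the group where they are high. The bounds given here are therefore a description. All such bounds below were formed in the same way.

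The wound at closure was compared with unwounded skin by limma. The limits on the arm differences did not use these groups, while the signal floor took the highest of all 6 group means, and 1 probe, UF_Ocu_AF_101139, passed it through closure alone. Of the 90 probes, 39 rose, where 17.1% of all tested probes did, and 11 fell, where 20.2% of all tested probes did. Among the 7788 tested probes past the same floor, 21.3% rose and 22.9% fell. The members' shares were 43.3% and 12.2%, and their median change was 0.78 against -0.02 over all tested probes. Of the probes that rose, 36 were well above background on at least 50% of the arrays of both groups, and their changes ran from 0.73 to 3.65. For 9 of those that fell this held as well, with changes of -2.19 to -1.02. Both chosen probes of a contig shared their call in 15 of 17 contigs. The unwounded group has 2 arrays, and without replicate 2, whose slide stood apart, 30 probes rose and 1 fell, while without closure replicate 5 the count of probes that fell was 5. With the percentile taken over all probes, 37 rose and 5 fell. No slide held both groups, and a fit with slide as a fixed block gave 32 that rose and 1 that fell.

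The sequences of the probes with the largest changes in the tested contrasts follow, since the account of those contrasts names them, with AATAAA in capitals as before.
UF_Ocu_AF_101139: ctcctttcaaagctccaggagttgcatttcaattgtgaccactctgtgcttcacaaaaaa
UF_Ocu_AF_101404: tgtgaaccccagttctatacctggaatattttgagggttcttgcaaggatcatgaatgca
UF_Ocu_AF_104969: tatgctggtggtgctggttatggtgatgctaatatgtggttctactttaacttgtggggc
UF_Ocu_AF_108909: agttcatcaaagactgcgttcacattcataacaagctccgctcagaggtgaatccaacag
UF_Ocu_AF_112225: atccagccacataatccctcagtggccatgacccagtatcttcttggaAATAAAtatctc
UF_Ocu_AF_112226: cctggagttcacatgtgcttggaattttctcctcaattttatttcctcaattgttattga
UF_Ocu_AF_104728: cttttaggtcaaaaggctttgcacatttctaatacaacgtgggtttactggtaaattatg
UF_Ocu_AF_105118: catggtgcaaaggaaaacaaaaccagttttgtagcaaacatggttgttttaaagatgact
UF_Ocu_AF_106802: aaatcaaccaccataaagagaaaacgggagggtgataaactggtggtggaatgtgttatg
UF_Ocu_AF_111149: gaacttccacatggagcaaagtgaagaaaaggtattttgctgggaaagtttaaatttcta
UF_Ocu_AF_111148: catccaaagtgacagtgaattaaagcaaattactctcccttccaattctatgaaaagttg
UF_Ocu_AF_114223: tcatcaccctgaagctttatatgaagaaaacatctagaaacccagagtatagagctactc
UF_Ocu_AF_112533: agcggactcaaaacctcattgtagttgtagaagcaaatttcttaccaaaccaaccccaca

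UF_Ocu_AF_101139, the probe that passed the floor through closure alone, was well above background on 6 of 6 closure arrays and on neither unwounded array, and its closure mean was at least 3.89-fold higher. Because closure admitted it, this is a description. Its levels were -8.39 and -8.98 in unwounded skin and from -5.22 to -4.02 at closure. UF_Ocu_AF_101404 was at least 9.47-fold higher at closure, on 6 of 6 arrays well above background. Its fitted log2 change was 3.87 (SE 0.68, limma adjusted p = 6.74e-05). UF_Ocu_AF_104969 was at least 4.67-fold higher, on 5 of 6 arrays. Its fitted log2 change was 4.03 (SE 0.93, limma adjusted p = 0.00124), and 3.31 without unwounded replicate 2. Both probes were well above background on neither unwounded array, and the p-values belong to the fitted changes, not to the bounds. UF_Ocu_AF_109524 rose by 1.43 (SE 0.38, limma adjusted p = 0.00406).

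The probes that fell most at closure were a pair on a contig named after a cDNA read, UF_Ocu_AF_112226 and UF_Ocu_AF_112225. UF_Ocu_AF_112226 was at -0.70 and -1.26 in unwounded skin. At closure 5 arrays lay between -9.76 and -8.63, near background, and replicate 4 at -1.52. The array-to-array switch recurred in other groups, at -8.25 on uncovered day 3 replicate 6, at -8.75 on covered day 3 replicate 5 and at -7.22 on uncovered day 5 replicate 3, while all other arrays of those groups lay between -1.24 and 1.38. The same arrays were low for UF_Ocu_AF_112225. The fitted change at closure was -6.79 (SE 2.28, limma adjusted p = 0.0206), with 1 of 6 closure arrays well above background, and the adjusted p was 0.0964 and 0.104 without unwounded replicate 1 and 2. For UF_Ocu_AF_104728 the change was -2.19 (SE 0.57, limma adjusted p = 0.00327) and without unwounded replicate 2 its adjusted p was 0.28.

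Taking all day 5 arrays of both arms together against closure, which leaves the arm difference out, 44 probes fell and 26 rose by limma, against 21.4% and 44.6% of all tested probes and 28.8% and 40.8% of those past the floor. The members' shares were 48.9% and 28.9%. The median change was -0.45 for the members and 0.40 for all tested probes, and changes are to be read relative to that shift, which is near 0 with the percentile over all probes. In the 41 and 23 of these well above background on at least 50% of the arrays of both groups, the changes ran from -3.25 to -0.62 and from 0.58 to 2.29. After normexp background correction 15 rose and 47 fell, and by the authors' own values 15 rose and 46 fell. Within slides 2, 7 and 11, which held both times, the members' median change was -0.61, -0.67 and -0.16, and a fixed slide block left 40 that fell and 23 that rose. This contrast and the one above share the closure arrays, so their calls are given side by side and not as an overlap.

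UF_Ocu_AF_105118 changed by -3.25 from closure to day 5 (SE 0.25, limma adjusted p = 2.98e-11). Its levels were -1.73 to -0.15 at closure, -3.22 to -1.21 and -3.57 to -3.29 in the uncovered and covered arm at day 3, and -4.41 to -3.67 over all day 5 arrays. All day 5 arrays lay below all unwounded arrays, which were at -2.60 and -2.46. UF_Ocu_AF_101139 was well above background on 0 of 11 day 5 arrays, at least 3.08-fold below closure, the group that admitted it. The log2 change of UF_Ocu_AF_101404 was -3.10 (SE 0.42, limma adjusted p = 4.6e-07), and 3 of 11 day 5 arrays were well above background. Among the probes that rose, UF_Ocu_AF_112226 and UF_Ocu_AF_112225 rose by 7.14 (SE 1.42) and 7.10 (SE 1.30), adjusted p = 9.11e-05 and 3.24e-05 by limma. For both, 1 of 6 closure arrays was well above background, so the sizes rest on background signals. UF_Ocu_AF_106225 rose by 2.29 (SE 0.39, limma adjusted p = 1.34e-05).

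Against unwounded skin, 3 probes were higher and 5 lower at day 5 by limma, against 15.7% and 5.71% of all tested probes. The median change was 0.25 for the members and 0.30 for all tested probes. UF_Ocu_AF_106225 was higher by 4.04 (SE 0.59, adjusted p = 3.2e-05). Of its 2 unwounded arrays 1 was well above background, and the difference was 5.43 without unwounded replicate 1 and 2.65 without replicate 2. UF_Ocu_AF_106430 and UF_Ocu_AF_108909 were higher by 1.82 and 1.40 (SE 0.63 and 0.39, adjusted p = 0.0392 and 0.0139). Without unwounded replicate 2 these became 1.24 and 0.26 (adjusted p = 0.517 and 0.835), and by the authors' own values they were 1.31 and 0.47 (adjusted p = 0.0897 and 0.258). UF_Ocu_AF_106802, UF_Ocu_AF_105118 and UF_Ocu_AF_111149 were lower, with changes of -1.55, -1.43 and -1.37 (SE 0.39, 0.37 and 0.46, adjusted p = 0.00675, 0.00916 and 0.0337). The partner of the last, UF_Ocu_AF_111148, was lower as well (-1.24, SE 0.40, adjusted p = 0.031), and so was UF_Ocu_AF_113891 (-1.28, SE 0.44, adjusted p = 0.0369), named after its values were seen because it completes the count. The counts became 5 higher and 9 lower without unwounded replicate 1, and 1 and 0 without replicate 2. They had 6, 9 and 6 probes higher without uncovered day 3 replicate 6, covered day 5 replicate 1 and covered day 5 replicate 4. Quantile normalization gave 1 higher and 6 lower, and normexp background correction and the authors' own values each gave 1 and 5.

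From day 3 to day 5, over both arms, 33 probes fell and 2 rose by limma, against 19.2% and 35.1% of all tested probes and 25.7% and 31.8% of those past the floor. The limits of the choice used arm differences of the same day 3 and day 5 arrays and not these means. The signal floor used group means, and 6 probes passed it only through the compared groups, 2 of them among those that fell. Nothing is therefore read from the counts, and the adjusted p-values of this contrast are a description. The median change was -0.24 for the members and 0.20 for all tested probes. UF_Ocu_AF_111149 and its partner UF_Ocu_AF_111148 changed by -1.73 and -1.45 (SE 0.25 and 0.22, adjusted p = 4.7e-06 and 1.05e-05 by limma). UF_Ocu_AF_111148 was at -3.17 and -2.44 in unwounded skin, -4.31 to -2.08 at closure, -2.89 to -1.55 uncovered and -3.59 to -2.95 covered at day 3, and -4.77 to -3.54 over all day 5 arrays. UF_Ocu_AF_114223 changed by -1.35 (SE 0.35, adjusted p = 0.00219). The probes that rose were UF_Ocu_AF_106225, by 1.53 (SE 0.33, adjusted p = 4.41e-04), and UF_Ocu_AF_112533, by 1.29 (SE 0.24, adjusted p = 1.14e-04). On slide 9, the slide with both arms at both times, the members' median change was -0.11. The count that rose was 14 without uncovered day 3 replicate 6, 6 without uncovered day 3 replicate 2, and 4 without uncovered day 5 replicate 5, covered day 5 replicate 3 or covered day 5 replicate 4.

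**Figure D4:**
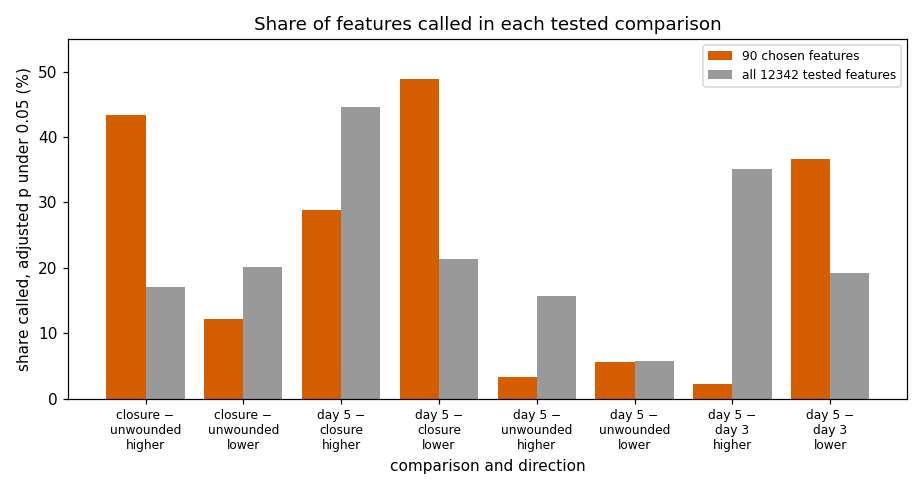
Share of the 90 chosen probes (orange) and of all 12342 tested probes (grey) called higher or lower at an adjusted p under 0.05 in each of the 4 contrasts between times, on an axis that starts at 0. The orange bars stand above the grey ones for higher at closure (43.3 against 17.1%), lower from closure to day 5 (48.9 against 21.4%) and lower from day 3 to day 5 (36.7 against 19.2%), the last being a contrast of the arrays used in the choice.

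Grouped by the call at closure, the 3 groups had different courses. The closure and unwounded levels set these groups, so their levels are a description. In the 39 probes higher at closure, the array medians were -0.65 ± 0.34 (SD, n = 6) at closure, and -0.94 ± 0.31 (SD, n = 6) and -2.34 ± 0.14 (SD, n = 5) in the uncovered and covered arm at day 3. At day 5 they were -1.59 ± 0.24 (SD, n = 6) and -1.67 ± 0.24 (SD, n = 5), and the unwounded arrays were at -1.86 and -1.78. All 5 covered day 3 arrays lay below both unwounded arrays and below all 11 day 5 arrays. In the 40 probes not called at closure, the medians were -2.25 ± 0.51 (SD, n = 6) and -3.45 ± 0.19 (SD, n = 5) in the uncovered and covered arm at day 3, against -3.22 ± 0.53 (SD, n = 6) at closure. In the 11 probes lower at closure, covered day 3 wounds stood between the closure level of -4.00 ± 1.02 (SD, n = 6) and the uncovered day 3 level of -1.41 ± 0.57 (SD, n = 6), at -2.74 ± 0.36 (SD, n = 5). In that smallest group all 11 probes had a higher mean in covered day 3 wounds than at closure, and in the group higher at closure 0 of 39 did. Closure levels set the groups, and the choice set covered below uncovered day 3 means, so nothing is read from these counts.

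**Figure D5:**
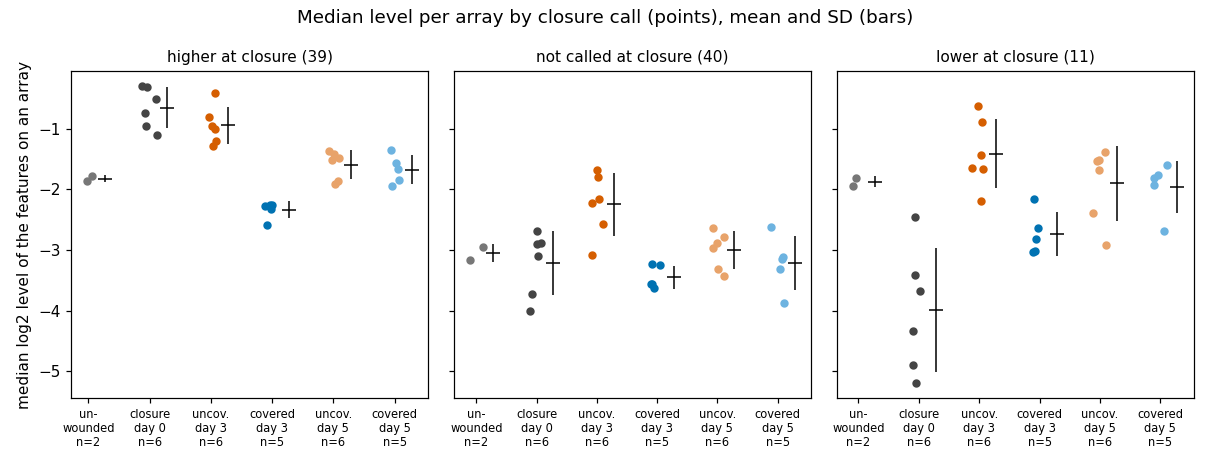
Median log2 level of the chosen probes on each array (points), with the group mean and SD beside them, for the 39 probes higher at closure, the 40 not called and the 11 lower. Covered day 3 arrays (dark blue) are the lowest group in the first panel, between -2.58 and -2.26, and lie above the mean at closure in the last.

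Every contig of a chosen probe carries 2 probes of the array, which makes the partner a second reading of the same contig. On 17 contigs both probes were chosen. On the other 56, the partner missed only the day 5 limit 18 times and only the day 3 limit 20 times, missed both 5 times, and lay below the signal floor 13 times. The median day 3 difference of these 56 partners in the series table was 0.74, against -0.05 over all 7795 probes past the floor. Of the partners, 54 were above 0 and 8 were under 0.2. UF_Ocu_AF_108084, partner of UF_Ocu_AF_108083, had differences of 1.87 at day 3 and 0.39 at day 5. UF_Ocu_AF_108444, partner of UF_Ocu_AF_108443, had 1.41 and 0.32, and UF_Ocu_AF_109523, partner of UF_Ocu_AF_109524, had 1.00 and 0.30. UF_Ocu_AF_106224, partner of UF_Ocu_AF_106225, reached 0.59 at day 3. The partner of UF_Ocu_AF_106430 gave 0.10 at day 3 with a highest group mean of 8.01, under the floor. UF_Ocu_AF_110582, partner of UF_Ocu_AF_110583, gave 0.32 with a highest mean of 8.86, also under the floor. UF_Ocu_AF_105506, partner of UF_Ocu_AF_105505, was bright, with a highest mean of 12.7, and had differences of 0.04 at day 3 and -0.45 at day 5. The 18 partners that missed only the day 5 limit had day 5 differences of 0.30 to 0.87.

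Single arrays and spots decided part of the choice. UF_Ocu_AF_105505 had a series table value of 14.6 on uncovered day 3 replicate 4 and of 7.95 to 8.78 on the other 29 arrays. In the scanner file of that array 1 of its 2 spots carries an outlier flag, and the level from the other spot was -7.22, inside the range of the other arrays. Without that array its day 3 difference in the table was 0.28, and only 2 of its 30 array signals were well above background. UF_Ocu_AF_105245, like the probe before it singled out after its values were seen, had a table value of 17.4 on covered day 5 replicate 3, also with 1 of 2 spots under an outlier flag, and a day 5 difference of -0.19. Without that array the difference was 1.05, outside the limit. The pair UF_Ocu_AF_112225 and UF_Ocu_AF_112226 had day 3 differences of 1.12 and 1.04 in the table. Without covered day 3 replicate 5 these were 0.10 and 0.14, the lowest of all 90 probes without any 1 array. Leaving out any 1 array, 17 of 90 probes met both limits every time. The day 3 difference was lowered most by uncovered replicate 6 in 35 probes and by uncovered replicate 5 in 33.

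On scanner values, 62 of the 90 probes met both limits, since 27 had a day 5 difference at or above the positive limit and 1 at or below the negative one. All 90 met the day 3 limit on that scale. With the percentile over all probes 70 met both limits, with quantile normalization 70 and with normexp background correction 84. On scanner values in the scaling used throughout, 79 of 90 day 5 differences were above 0, with a median of 0.21 against 0.01 over all tested probes. The choice used the same arrays, so these counts describe how the limits fall and support nothing further.

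Across the 30 arrays 39.7 to 50.4% of probes were well above background, and arrays of a group correlated with r of 0.911 to 0.993. On the second principal component, with 19.2% of the variance, slide 6 (unwounded replicate 2 and covered day 5 replicate 1) stood apart at 100.5 and 104.4, and these arrays alone were scanned on scan day 1. They had 23 and 176 saturated probes, against at most 4 on any other array. The part of slide 6 in the unwounded comparisons is shown by the counts without it: 34 higher and 1 lower at closure, and 1 higher and 0 lower at day 5. For the comparisons of day 5 with closure and with day 3, the counts without it were 26 higher and 46 lower, and 2 and 34.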

How the data were processed

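Epidermal RNA of 30 samples was measured on 1-colour arrays. Spot intensities in the deposited scanner files had been background-subtracted by Agilent's Feature Extraction, with no step between arrays, per the file headers. Further deposited columns of 0 and 1, other than signals, mark spots well above background, saturated spots and outliers. The authors also deposited a table of linear intensities, 1 per probe and array, with column medians of 288 to 293. On the log2 scale it correlated with the scanner signals with r of 0.952 to 0.982. How its background was corrected is not given in the sources used here, and limma is named in the submitters' processing notes.

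The 90 probes were chosen on that table. For all else, control spots and outlier-flagged spots were left out, log2 processed signals of a probe's spots were averaged, and each array's 75th percentile, taken over 7446 probes that were well above background throughout, was subtracted. All 12342 probes with such a signal on 2 or more arrays entered 1 limma 3.58.1 fit in R 4.3.3 over 30 arrays and 6 groups (lmFit and eBayes, 2-sided, no block). Calls needed an adjusted p (Benjamini-Hochberg, per comparison) under 0.05. All 90 probes passed that filter.

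The choice used both arm differences and a floor on the highest group mean, so those differences and comparisons of a single arm are described without a test. The comparisons tested were closure with unwounded skin, and the mean of all day 5 arrays with closure, unwounded skin and the mean of all day 3 arrays. The members and lists were chosen with earlier results of these data known. The rule for the text named the 12 contigs with the largest day 3 difference, the 3 called probes with the largest rise and fall per comparison, and the probes nearest to each limit. Of these contigs, 1 with a pair of probes is not reported here. Figures were drawn with Matplotlib. The number of arrays limits the precision. Alternatives changed the scaling, background correction, filter, block and arrays used. The fit was tested on simulated data.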

Additional observations from a re-analysis of the deposited data

Results flagged for a closer look

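In 5 of 85 sets of arrays examined (the median level of the 90 probes and the 16 leading probes, in each group of 5 or 6 arrays), 1 array lay far from the others of its group, and chance alone gives such a gap in about 5% of sets. UF_Ocu_AF_109524 was at 2.65 on uncovered day 3 replicate 5, where the other arrays of the group lay between 0.68 and 1.09. UF_Ocu_AF_106430 was at -3.95 on closure replicate 4, and the others at -2.31 to -1.81. UF_Ocu_AF_110583 was at -7.11 on covered day 3 replicate 3, and the others at -6.31 to -6.14. The remaining 2 were signals not well above background: UF_Ocu_AF_105505 at -7.54 on uncovered day 5 replicate 5, with the others at -6.11 to -5.76, and UF_Ocu_AF_114403 at -10.35 on covered day 5 replicate 1, a slide 6 array, with the others at -8.21 to -7.85.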

How the results depend on the processing

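The count of probes that fell at closure depended most on the settings: it was 11, and became 5 with the percentile over all probes, 6 with quantile normalization, 6 with normexp, 6 in the authors' series table, 5 with no filter on dim probes, 1 with slide as a fixed block, 2 with scan day as a block and 1 without slide 6. The count that rose by day 5 from closure was 15 with normexp and 15 in the series table, against 26. Against unwounded skin at day 5, probes higher numbered 1 with quantile normalization, 1 with normexp, 1 in the series table and 1 without slide 6, against 3. Probes lower numbered 2 with no filter, 2 with slide as a fixed block, 2 with scan day as a block and 0 without slide 6, against 5. From day 3 to day 5, 4 rose with slide as a fixed block, 6 with slide as a random block and 4 with scan day as a block, against 2. The median day 3 difference of the 90 probes was 0.94 in the series table, a source added after seeing the data, against 1.21. The cause of these shifts was not tested. Where an array was left out, the count ran from 30 to 41 and 1 to 13 (rose and fell at closure), 23 to 27 and 42 to 45 (rose and fell from closure to day 5), 1 to 9 and 0 to 9 (higher and lower than unwounded) and 2 to 14 and 25 to 36 (rose and fell from day 3 to day 5), with 60 to 90 probes within the limits and median arm differences of 1.06 to 1.25 at day 3 and 0.11 to 0.34 at day 5. Without slide 6 or an unwounded replicate, the lone unwounded array is assumed to vary like the other groups.

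Replicate numbers are shared by the groups, and same-numbered arrays had a median correlation of -0.001 in their deviations (63 pairs, 23 above 0.1). The values ran from -0.724 to 0.535 and include slide effects. They cannot show whether same-numbered arrays share an animal. Arrays of 1 slide did deviate together (31 pairs, median correlation 0.296, 25 above 0.1), and the fit has no slide block. With the replicate block the counts were 37 and 5 at closure, 24 and 44 from closure to day 5, 3 and 2 against unwounded skin and 3 and 31 from day 3 to day 5.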
